A study of Mus musculus with 6 samples.

Results

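The genes described here handle zinc, iron and copper in primary hepatocytes of the mouse, liver parenchymal cells isolated and cultured for a short time. They were chosen by name, with earlier results of these data known. All members of the zinc transporter families Slc39a and Slc30a were taken, together with 27 genes for metallothioneins, transferrin and its receptors, ferritin, metalloreductases, iron sensing and copper transport. All 51 were among the 22609 gene rows of the deposited tables, Tfr2 under its older symbol Trfr2. Of these, 45 had enough counts to be tested. Slc39a5, Slc39a12, Slc30a2, Slc30a8, Slc30a10 and Heph did not.

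The cells came from male wild-type mice of C57BL/6 background at 4 months of age. One group of 3 libraries received 20 µg/mL of LRG1 protein, leucine-rich alpha-2-glycoprotein 1, a secreted glycoprotein. The other group of 3 received phosphate-buffered saline (PBS), and both were harvested after 16 h. The comparison asks which transcripts differ between hepatocytes given the protein and hepatocytes given the vehicle. Whether the 3 libraries of a group stand for separate animals or cultures is not stated in the labels. The p-values therefore cover only the spread among these libraries, which may be technical.

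Zinc crosses membranes through importers of the ZIP family (Slc39a), which bring it into the cytosol, and exporters of the ZnT family (Slc30a), which remove it. Cytosolic zinc is buffered by metallothioneins, whose genes are switched on by the zinc-sensing factor MTF1 through metal response elements (MREs). Iron enters hepatocytes bound to transferrin or as free iron, is stored in ferritin and leaves through ferroportin (Slc40a1). Iron regulatory proteins bind hairpins in the untranslated regions of several of these transcripts, the iron-responsive elements (IREs). Hepatocytes also sense iron for the whole body and answer with hepcidin, the hormone that removes ferroportin from cell surfaces. Copper is taken up by CTR1 (Slc31a1) and exported by the ATPases Atp7a and Atp7b.

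Gene counts per library ranged from 18625748 to 23036332. Levels are counts per 1000000 (CPM) after scaling of the libraries, and levels per kilobase divide CPM by exonic length. Differences are log2 fold changes of LRG1 against PBS from edgeR's quasi-likelihood test. A gene is said to have risen, fallen or passed when its adjusted p was below 0.05 over all 12301 tested genes. Values after ± are SDs over the 3 libraries of a group. The 8 hepatocyte markers summed to 22672 to 23683 CPM with PBS and 21947 to 22856 CPM with LRG1. Alb, which encodes albumin, and 4 more did not pass, whereas Apoa1, Hnf4a and Tat fell 1.54-fold, 1.23-fold and 7.69-fold.

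Of the 45 tested metal handling genes, 18 rose, 17 fell and 10 did not pass. Among all tested genes 51.4% passed, 25.5% higher and 25.8% lower. The members were more abundant than most genes, with a median of 77.4 CPM against 29.8 CPM for all tested genes. At a mean of 10 CPM or more, 30 of 40 members passed (75%), against 55.3% of 8907 genes. Since the members were chosen with earlier results of these data known, the higher share is a description only. At 1.5-fold or more, 9 of the 45 passed, beside 18.1% of all tested genes. Of these, 5 rose (7.49% of all genes did) and 4 fell (10.6% of all genes did), so large differences were about as frequent as among all genes. The groups' libraries did not overlap in 37 of the 45 members, against 57.6% of all tested genes. The median log2 fold change of the members was 0.05, and that of all tested genes was 0.0093. The 9 genes were Slc39a2, Slc30a3, Steap1, Steap2 and Slc11a1, which rose, and Slc40a1, Tfrc, Atp7b and Hfe2, which fell.

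**Figure D1:**
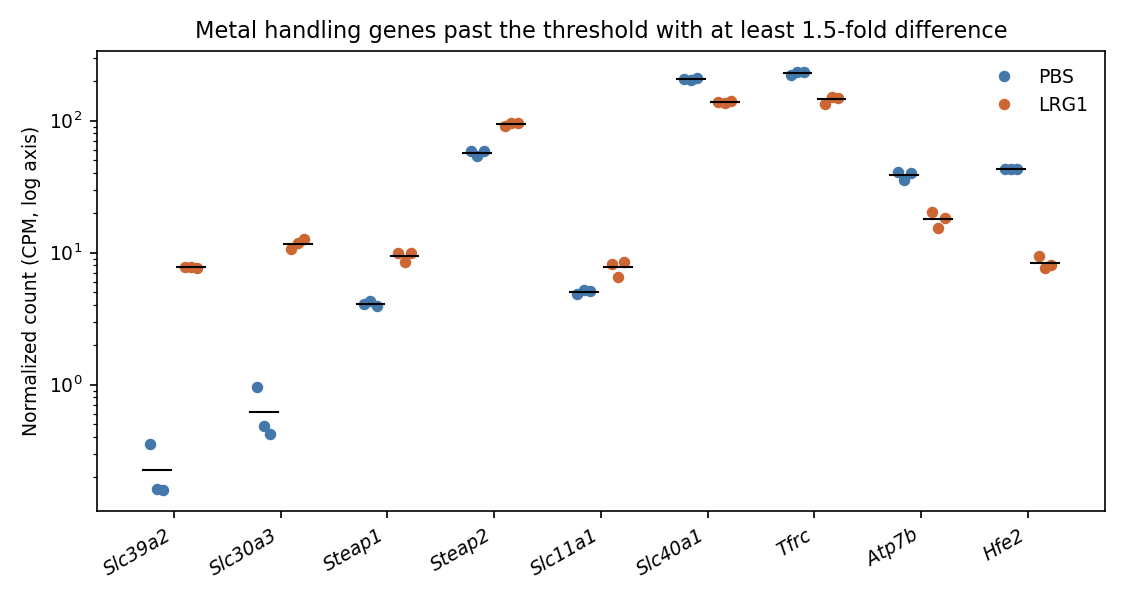
Normalized counts (CPM, log axis) of the 9 metal handling genes that passed with at least a 1.5-fold difference. Each point is 1 library, blue for PBS and orange for LRG1, and black lines are means of 3. In all 9 genes the points of both groups are separate, and Slc39a2 and Slc30a3 start below 1 CPM.

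**Figure D2:**
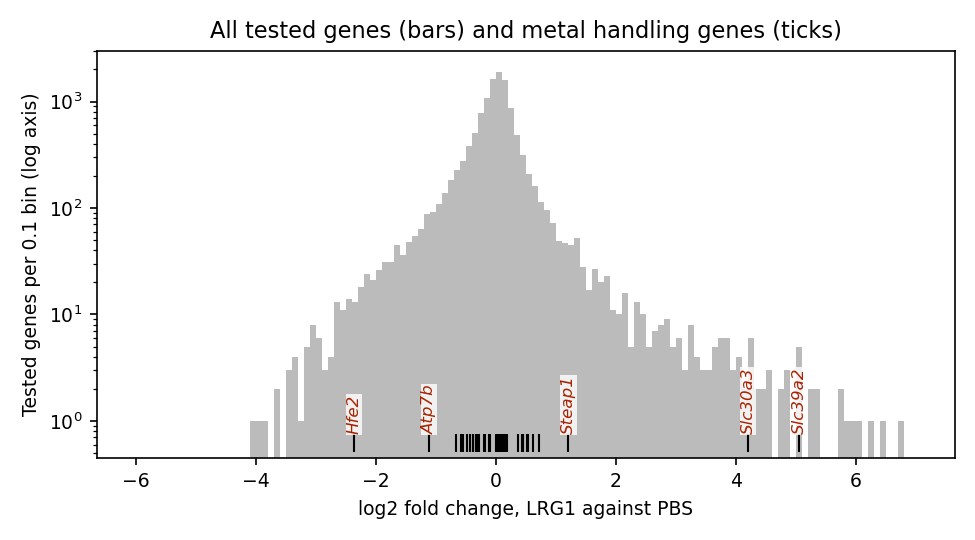
Distribution of log2 fold changes (LRG1 against PBS) of all 12301 tested genes as bars, with the number of genes per bin on a log axis. Ticks mark the 45 tested metal handling genes, most of which lie near 0, and the 5 with a log2 fold change beyond 1 in either direction are named.

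Zinc importers went both ways. Of 14 Slc39a genes, 5 rose, 4 fell, 3 did not pass and 2 had too few counts. Of the 12 tested 75% passed, beside 51.4% of all tested genes. The family's largest difference was in Slc39a2, which encodes the plasma membrane importer ZIP2. It had 0.354, 0.162 and 0.159 CPM in the PBS libraries, from 13 counts in all, and 7.77, 7.82 and 7.66 CPM with LRG1, from 489 counts. The PBS values were near the detection limit and every LRG1 value was far above them. The log2 fold change was 5.05 (SE 0.242, adjusted p = 1.96e-14), or 33.2-fold. Slc39a2 shares 4.38% of its exonic bases with Mettl17 on the same strand, a gene with 14.7 ± 1.42 CPM with PBS and 17.6 ± 0.268 CPM with LRG1. Per kilobase, Slc39a2 still ranked 12th of the 12 tested importers with LRG1, at 3.32 CPM per kb.

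The abundant importers differed by much less. Slc39a4, which encodes ZIP4 and is best known as the importer of dietary zinc in the intestine, had the highest level per kilobase of the family with PBS, 141 CPM per kb. It had 381, 378 and 406 CPM with PBS and 322, 302 and 302 CPM with LRG1. The groups did not overlap, and Slc39a4 fell 1.26-fold (log2 fold change -0.33, SE 0.0404, adjusted p = 2.59e-07). Slc39a7, the ZIP7 transporter that releases zinc from the endoplasmic reticulum, rose slightly, from 106 to 116 CPM per kb. It thereby stood first in the family with LRG1, where Slc39a4 had 112 CPM per kb. GENCODE places Slc39a7 on the same strand as a longer transcript, Gm20427, which shares 80.7% of its exonic bases.

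Slc39a14 encodes ZIP14, which carries zinc, manganese and iron not bound to transferrin into hepatocytes. Its libraries had 165, 164 and 152 CPM with PBS and 207, 201 and 213 CPM with LRG1. All LRG1 values were higher, a rise of 1.30-fold (log2 fold change 0.37, SE 0.0418, adjusted p = 6.81e-08). Its close relative Slc39a8 (ZIP8) had 27.8, 28.0 and 26.3 CPM with PBS and 23.9, 23.3 and 24.6 CPM with LRG1. Slc39a8 fell 1.14-fold with adjusted p = 0.0186, a call lost without PBS replicate 1 (0.0519), PBS replicate 2 (0.0550) or LRG1 replicate 2 (0.0751), and with DESeq2 (0.0575). Slc39a13, a ZIP of intracellular vesicles, rose 1.44-fold from 29.6 ± 1.78 to 42.6 ± 0.587 CPM. Slc39a10 rose 1.35-fold, whereas Slc39a11 fell 1.30-fold and Slc39a6 fell 1.13-fold.

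The remaining importers showed little or no signal. Slc39a1, Slc39a3 and Slc39a9 did not pass, and Slc39a1, with 160 ± 9.15 CPM with PBS, had a log2 fold change between -0.10 and 0.09 (95% interval). Of the 50-base windows of the Slc39a1 transcript, 21.8% occur unchanged in 1 other GENCODE gene, Slc39a1-ps. Slc39a5, an importer known from liver, pancreas and intestine, had 0 counts in the 3 PBS libraries, which allows up to 0.0525 CPM, and 3 counts in the 3 LRG1 libraries. Slc39a12 had 1 count in each group. No difference was detectable for either at this depth.

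Zinc exporters showed the same contrast between 1 scarce, strongly higher gene and abundant genes with small differences. Of 10 Slc30a genes, 2 rose, 2 fell, 3 did not pass and 3 had too few counts. Of the 7 tested 57.1% passed, beside 51.4% of all tested genes. Slc30a3 encodes ZnT3, known for loading zinc into synaptic vesicles of neurons. It had 0.962, 0.485 and 0.425 CPM with PBS, from 36 counts, and 10.7, 11.9 and 12.6 CPM with LRG1, from 739 counts. All PBS values were below 1 CPM and all LRG1 values were more than 10 times the highest of them. The log2 fold change was 4.20 (SE 0.197, adjusted p = 1.34e-14), or 18.4-fold. Per kilobase, Slc30a3 with LRG1 was still below the other 6 tested exporters, of which Slc30a1 was next at 6.79 CPM per kb.

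Slc30a4, which encodes ZnT4 of vesicle membranes, was the most abundant exporter per kilobase at 23.3 CPM per kb with PBS. It fell 1.21-fold, from 128 ± 3.64 to 106 ± 4.02 CPM (adjusted p = 8.85e-06). Slc30a7, a ZnT of the secretory pathway, rose 1.08-fold with adjusted p = 0.0349. That call was lost without PBS replicate 3 (0.142), LRG1 replicate 1 (0.0515), LRG1 replicate 2 (0.105) or LRG1 replicate 3 (0.0780), with DESeq2 (0.0848) and with a replicate block (0.0634). Slc30a5 and Slc30a6, whose products form a complex in the secretory pathway, had log2 fold changes between -0.06 and 0.16 and between -0.05 and 0.29 (95% intervals). Slc30a9 did not pass (adjusted p = 0.0789) but did so, lower, without PBS replicate 3 (0.0233). Slc30a10, the hepatic manganese exporter, had 0.557, 0.485 and 0.265 CPM with PBS (25 counts in all). With LRG1 it had 0.249, 0.0864 and 0.151 CPM (10 counts). The groups did not overlap, but the counts were too few for the filter of the main test. Slc30a2 and Slc30a8, the latter known from insulin granules, had 0 counts in all 6 libraries, which allows up to 0.0249 CPM.

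The metallothionein genes Mt1 and Mt2 fell together with the plasma membrane exporter gene Slc30a1 (ZnT1), 3 genes known as targets of MTF1. Mt1 had 213, 261 and 244 CPM with PBS and 203, 183 and 181 CPM with LRG1. Mt2 had 129, 152 and 148 CPM with PBS and 120, 106 and 102 CPM with LRG1. In both genes PBS replicate 1 was the lowest of its group and LRG1 replicate 1 the highest, and the groups did not overlap. Mt1 fell 1.27-fold (adjusted p = 1.90e-05) and Mt2 1.31-fold (adjusted p = 5.39e-06). Mt2 shares 73.5% of its exonic bases with an antisense gene of GENCODE, Gm45774, and whether the counting separated strands is not given in the sources used here.

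Slc30a1 had 42.7, 46.4 and 44.3 CPM with PBS and 33.2, 36.1 and 37.6 CPM with LRG1. It fell 1.25-fold without overlap (log2 fold change -0.32, SE 0.0607, adjusted p = 0.000112). Mtf1 itself did not pass, at 42.1, 37.7 and 39.4 CPM with PBS and 42.4, 40.8 and 38.9 CPM with LRG1. Its log2 fold change lay between -0.09 and 0.16 (95% interval).

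Because these 3 genes fell together, their promoters are shown with the MRE core in capitals, searched on both strands as TGCACNC or TGCGCNC. The windows come from RefSeq on GRCm38.p6 and run from 250 bases before to 50 bases after the annotated start, on the plus strand in each case. They are chr8:94178839-94179138 for Mt1, chr8:94172368-94172667 for Mt2 and chr1:191906531-191906830 for Slc30a1.
Mt1: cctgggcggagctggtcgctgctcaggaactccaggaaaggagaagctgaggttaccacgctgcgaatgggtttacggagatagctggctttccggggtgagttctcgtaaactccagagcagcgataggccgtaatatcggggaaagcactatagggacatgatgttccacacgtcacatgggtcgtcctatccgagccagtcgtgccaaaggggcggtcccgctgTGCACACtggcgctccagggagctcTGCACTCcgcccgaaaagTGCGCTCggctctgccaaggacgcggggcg
Mt2: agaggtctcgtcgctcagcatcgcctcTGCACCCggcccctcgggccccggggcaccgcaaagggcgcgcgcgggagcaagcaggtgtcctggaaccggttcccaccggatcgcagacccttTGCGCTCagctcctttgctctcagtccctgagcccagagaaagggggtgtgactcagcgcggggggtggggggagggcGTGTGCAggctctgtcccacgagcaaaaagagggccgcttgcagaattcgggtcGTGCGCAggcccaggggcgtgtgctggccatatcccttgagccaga
Slc30a1: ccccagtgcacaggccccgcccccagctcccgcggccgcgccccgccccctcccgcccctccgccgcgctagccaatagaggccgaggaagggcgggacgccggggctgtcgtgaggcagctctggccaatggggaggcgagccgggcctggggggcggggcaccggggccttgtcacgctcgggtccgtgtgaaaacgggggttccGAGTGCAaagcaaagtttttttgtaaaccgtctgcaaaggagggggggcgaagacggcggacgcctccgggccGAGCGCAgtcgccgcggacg
The Mt1 window held 3 matches, the Mt2 window 4 and the Slc30a1 window 2. Of 32817 promoter windows of this length, 25.7% held at least 1 match, 7.12% held 2 or more and 0.518% held 4 or more. Windows were found for 41 of the 51 genes, 12 of them with several, and 21 of the 41 held a match in at least 1 window. In 8 a window held 2 or more. The other 5 were Slc30a4 and Slc30a10 with 3, and Slc30a2, Tfrc and Atp7a with 2, and of these Slc30a4 and Tfrc fell and Atp7a rose. The counts of genes took the best of each gene's windows, whereas the shares above are per single window, so they are not comparable. A match is a description of the sequence and not evidence of binding.

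Transferrin and its receptors moved apart. Trf encodes transferrin, the iron carrier of plasma made by hepatocytes, and was the most abundant member by far. It had 22607, 21177 and 22418 CPM with PBS and 24109, 23873 and 24398 CPM with LRG1, a rise of 1.09-fold (adjusted p = 0.00875). GENCODE lists Gm20425 on the same strand with 63.5% of the exonic bases of Trf in common. Tfrc encodes transferrin receptor 1, which takes up iron-loaded transferrin. It had 222, 235 and 232 CPM with PBS and 134, 152 and 149 CPM with LRG1. All LRG1 values were well below those of PBS, and Tfrc fell 1.58-fold (log2 fold change -0.66, SE 0.0455, adjusted p = 1.47e-11). Tfr2 encodes transferrin receptor 2, a liver receptor that senses transferrin saturation. It had 194, 189 and 210 CPM with PBS and 293, 286 and 280 CPM with LRG1. Tfr2 rose 1.45-fold with no overlap (log2 fold change 0.53, SE 0.0421, adjusted p = 1.89e-10). Per kilobase, the ratio of Tfr2 to Tfrc was 1.35 with PBS and 3.09 with LRG1.

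The metalloreductase genes, whose STEAP proteins reduce ferric and cupric ions, all rose, 4 of 4, beside 25.5% of all tested genes. Steap1, whose product needs a partner to reduce metal, had 4.05, 4.31 and 3.93 CPM with PBS and 10.01, 8.55 and 9.93 CPM with LRG1. It rose 2.31-fold (log2 fold change 1.21, SE 0.126, adjusted p = 2.17e-08). Steap2 had 58.6, 53.8 and 58.9 CPM with PBS and 91.2, 95.3 and 95.9 CPM with LRG1, a 1.65-fold rise (adjusted p = 1.07e-11). In both genes the groups were clearly separate. Steap4, the most abundant of the 4 per kilobase at 87.0 CPM per kb with PBS, rose 1.37-fold from 275 ± 5.96 to 377 ± 29.6 CPM. Steap3, the ferrireductase of transferrin-containing endosomes, had 69.0, 72.2 and 78.2 CPM with PBS and 85.0, 78.9 and 80.9 CPM with LRG1. Its rise of 1.12-fold (adjusted p = 0.0121) was lost without PBS replicate 1 (0.0879) or LRG1 replicate 1 (0.0693).

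Slc11a2 encodes DMT1, which moves ferrous iron out of endosomes. It had 115, 112 and 115 CPM with PBS and 111, 104 and 103 CPM with LRG1. Although the groups did not overlap, it did not pass (log2 fold change -0.10, adjusted p = 0.0550). It passed, lower, without LRG1 replicate 1 (0.0132), with DESeq2 size factors (0.0499) and with upper-quartile scaling (0.0498). Slc11a1 encodes NRAMP1, a metal carrier of phagosomes known from macrophages. It had 4.86, 5.17 and 5.09 CPM with PBS and 8.22, 6.52 and 8.46 CPM with LRG1, a 1.53-fold rise (adjusted p = 0.000447).

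Macrophage markers were detected in both groups, Cd68 far above the rest. Of the 13 listed, 11 could be tested, and 1 rose (Marco), 2 fell (Cd68 and Cd5l) and 8 did not pass. Among all tested genes 51.4% passed. None of the 13 was at 0 in all libraries. Their summed level was 232.6 to 277 CPM with PBS and 194 to 220 CPM with LRG1, of which Cd68 alone made up 236 ± 24.0 and 184 ± 13.1 CPM. Without Cd68 the sums were 19.8 to 23.1 and 18.0 to 24.5 CPM. In bulk samples, fewer cells of a type and less RNA per cell cannot be told apart. The part of macrophages, which also express ferroportin, in the results of Slc11a1 and Slc40a1 was not tested.

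IRE hairpins are bound by iron regulatory proteins, which either block translation or stabilise the transcript. They were searched in the longest coding transcript of each gene (GENCODE M21, GRCm38) as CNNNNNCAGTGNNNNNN, with the 5 bases before the loop pairing with the last 5 and G-T pairs allowed. The sequences below run 5′ to 3′ with the 6-base loop in capitals.
Fth1, 5′ UTR: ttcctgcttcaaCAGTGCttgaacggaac
Ftl1, 5′ UTR: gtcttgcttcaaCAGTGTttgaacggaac
Slc40a1, 5′ UTR: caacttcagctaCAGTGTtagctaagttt
Tfrc, 3′ UTR, hairpin 1: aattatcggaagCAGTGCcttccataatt
Tfrc, 3′ UTR, hairpin 2: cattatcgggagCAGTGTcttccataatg
Tfrc, 3′ UTR, hairpin 3: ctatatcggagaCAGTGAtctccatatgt
Tfrc, 3′ UTR, hairpin 4: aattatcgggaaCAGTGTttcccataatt
In the transcripts searched, 4 of the 51 genes had a match, 3 of them in the 5′ UTR and Tfrc with 4 copies in the 3′ UTR. Other isoforms and hairpins with bulged stems were not searched, and no match does not show that a gene lacks an IRE. Of 21877 coding genes, 0.0914% held it in the 5′ UTR and 0.539% in the 3′ UTR. By background knowledge a 5′ UTR hairpin acts on translation, which RNA counts do not measure, while those of Tfrc act on the stability of its RNA.

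Of these 4 transcripts, 3 fell and 1 did not pass, where 25.8% of all tested genes fell. The part of the IREs in these RNA differences was not tested. Slc40a1, ferroportin, the sole known iron exporter of cells, had 208, 205 and 212 CPM with PBS and 139, 135 and 141 CPM with LRG1. The spread within each group was small beside the gap between them, and Slc40a1 fell 1.503-fold (log2 fold change -0.59, SE 0.0386, adjusted p = 6.09e-12). Fth1, the ferritin heavy chain with ferroxidase activity, had 3295, 3669 and 3462 CPM with PBS and 3038, 2705 and 2695 CPM with LRG1. It fell 1.24-fold without overlap (log2 fold change -0.30, SE 0.0472, adjusted p = 8.58e-06). Ftl1, the ferritin light chain, had 1388, 1355 and 1266 CPM with PBS and 1453, 1367 and 1329 CPM with LRG1. Its groups overlapped, with a log2 fold change between -0.04 and 0.14 (95% interval). The value of Ftl1 is uncertain, because 78.9% of its 50-base windows occur unchanged in transcripts of 15 other GENCODE genes, among them the pseudogenes Ftl1-ps1 and Ftl2-ps. For Fth1 that share was 4.01%.

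The iron regulatory proteins themselves differed in direction. Aco1 encodes IRP1, which serves as cytosolic aconitase when it holds an iron-sulfur cluster. It had 460, 466 and 480 CPM with PBS and 340, 340 and 330 CPM with LRG1, a fall of 1.39-fold (log2 fold change -0.48, SE 0.0370, adjusted p = 1.28e-10). Ireb2 encodes IRP2, which is degraded when iron is plentiful. It had 112, 113 and 107 CPM with PBS and 125, 123 and 125 CPM with LRG1, a rise of 1.12-fold (adjusted p = 0.00138). Neither gene's groups overlapped.

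**Figure D3:**
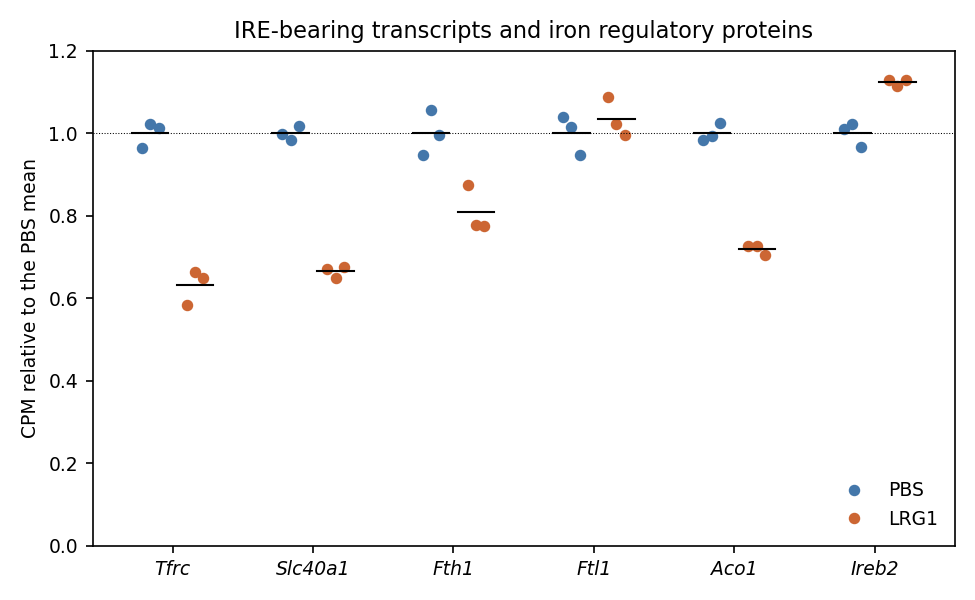
CPM relative to the PBS mean of each gene (linear axis from 0) for the 4 transcripts with an IRE hairpin and for the iron regulatory protein genes Aco1 and Ireb2. Each point is 1 library and lines are means of 3. Tfrc, Slc40a1, Fth1 and Aco1 lie below 1 with LRG1, Ireb2 lies above, and the groups of Ftl1 overlap.

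Ncoa4, the receptor that delivers ferritin to autophagy, had 10.2, 9.001 and 10.3 CPM with PBS and 7.42, 8.46 and 8.16 CPM with LRG1. It fell 1.23-fold with adjusted p = 0.0254. The call was lost without PBS replicate 1 (0.0801), PBS replicate 3 (0.0898) or LRG1 replicate 1 (0.0911), and with DESeq2 (0.0830). Its level is uncertain too, as 43.1% of its 50-base windows occur in 1 other gene, Gm6768. Ceruloplasmin (Cp), the copper-bearing plasma ferroxidase that works with ferroportin, had 5208, 4706 and 4904 CPM with PBS and 3294, 3353 and 3477 CPM with LRG1. Cp fell 1.46-fold with the groups far apart (log2 fold change -0.55, SE 0.0415, adjusted p = 7.84e-11). Heph, the membrane-bound relative of ceruloplasmin known from the intestine, had 8 counts with PBS and 10 with LRG1.

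Among the genes that sense iron upstream of hepcidin, Hfe2 had the largest fall of the 45 tested genes. Hfe2 encodes hemojuvelin, a co-receptor for bone morphogenetic proteins (BMPs). It had 42.7, 42.7 and 43.2 CPM with PBS and 9.41, 7.60 and 8.01 CPM with LRG1. The PBS libraries were nearly identical and no LRG1 library came near them. Hfe2 fell 5.15-fold (log2 fold change -2.36, SE 0.0795, adjusted p = 2.64e-17). Hfe, the gene of classical hemochromatosis, had 77.7, 81.6 and 80.1 CPM with PBS and 62.1, 56.1 and 59.1 CPM with LRG1, and fell 1.35-fold (adjusted p = 9.03e-08). Tmprss6, which encodes the protease matriptase-2 that cleaves hemojuvelin, had 312, 325 and 333 CPM with PBS and 385, 341 and 349 CPM with LRG1. It rose 1.11-fold (adjusted p = 0.00611), and the call was lost without LRG1 replicate 1 (0.0776).

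Hepcidin and its other regulators gave a mixed picture. Of the 11 listed genes, 5 rose, 4 fell, 1 did not pass and Hamp2 was not tested. Among all tested genes 25.5% rose and 25.8% fell. Hamp, which encodes hepcidin, had 285, 274 and 333 CPM with PBS and 123, 78.9 and 103 CPM with LRG1, and fell 2.93-fold (adjusted p = 1.24e-12). Bmp6, the BMP ligand that raises hepcidin, had 3.80, 3.18 and 3.56 CPM with PBS and 1.05, 0.648 and 0.151 CPM with LRG1, and fell 5.64-fold (adjusted p = 1.74e-07). The BMP target Id1 fell 2.18-fold and Fgl1, a hepatokine, fell 1.35-fold. Smad7, an inhibitor of SMAD signalling, rose 2.17-fold, Erfe, which binds BMPs, rose 2.85-fold from 1.10 ± 0.328 to 3.15 ± 0.362 CPM, and the protease gene Furin rose 1.61-fold. Neo1, a hemojuvelin-binding receptor, rose 1.29-fold and Smad4 1.12-fold. Hamp2, a close copy of Hamp, had 7.34, 0.108 and 5.41 CPM with PBS and at most 0.0504 CPM with LRG1, so PBS replicate 2 stood apart from its group.

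In liver, Bmp6 is made mainly by endothelial cells. Among all tested genes 51.4% passed. Of 10 endothelial markers, 1 rose (Stab1), 3 fell (Stab2, Lyve1 and Oit3), 5 did not pass and 1 was not tested. None of the 10 was at 0 in all libraries. Their summed level was 65.4 to 70.04 CPM with PBS and 89.03 to 90.5 CPM with LRG1, and without Stab1 49.0 to 51.1 and 41.0 to 44.4 CPM. The part of endothelial cells in the Bmp6 result was not tested.

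**Figure D4:**
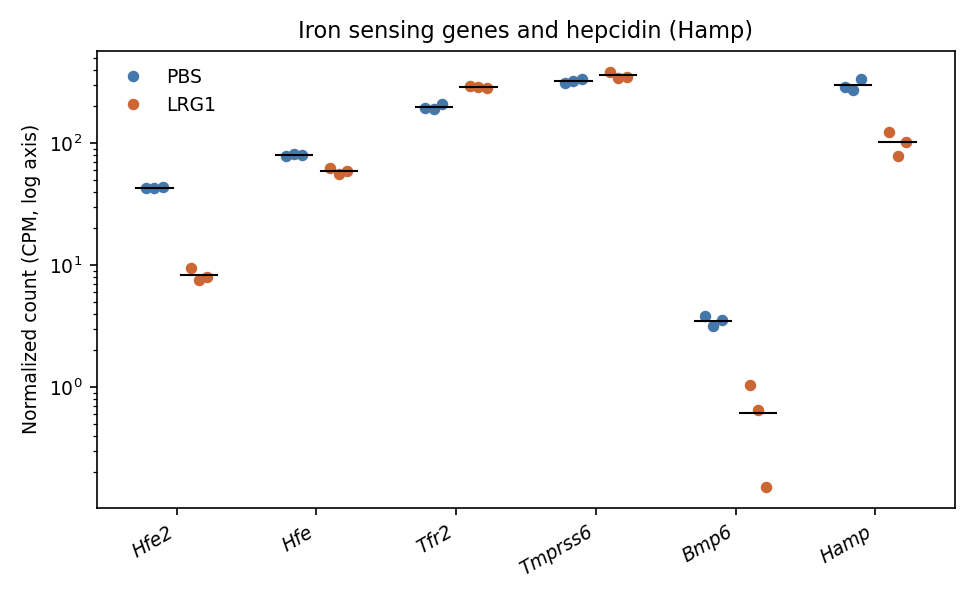
Normalized counts (CPM, log axis) of the iron sensing genes Hfe2, Hfe, Tfr2 and Tmprss6, the ligand gene Bmp6 and the hepcidin gene Hamp. Each point is 1 library and lines are means of 3 (blue PBS, orange LRG1). Hfe2, Hfe, Bmp6 and Hamp are lower with LRG1, whereas Tfr2 and Tmprss6 are higher by less than 1.5-fold.

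Among copper transporters, the importer and the exporters behaved differently. Slc31a1, the high-affinity importer CTR1, had 123, 120 and 120 CPM with PBS and 123, 120 and 125 CPM with LRG1. The groups overlapped, with a log2 fold change between -0.06 and 0.10 (95% interval). Slc31a2 (CTR2) rose 1.14-fold from 34.0 ± 1.77 to 38.7 ± 1.69 CPM (adjusted p = 0.0122), a call lost without PBS replicate 1 (0.0689) or LRG1 replicate 2 (0.0808). Atp7b, the Wilson disease ATPase that loads copper onto ceruloplasmin and exports it to bile, had 40.8, 35.7 and 39.8 CPM with PBS and 20.4, 15.3 and 18.3 CPM with LRG1. Atp7b fell 2.16-fold (log2 fold change -1.11, SE 0.0842, adjusted p = 8.12e-11). Atp7a, the Menkes disease ATPase that exports copper in most other tissues, had 16.1, 17.4 and 16.98 CPM with PBS and 23.5, 22.4 and 22.9 CPM with LRG1. It rose 1.36-fold (log2 fold change 0.45, SE 0.0739, adjusted p = 2.13e-05). Both ATPase genes had no overlap between groups. Per kilobase Atp7b was above Atp7a with PBS, 5.96 against 3.43 CPM per kb, and below it with LRG1, 2.77 against 4.67.

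**Figure D5:**
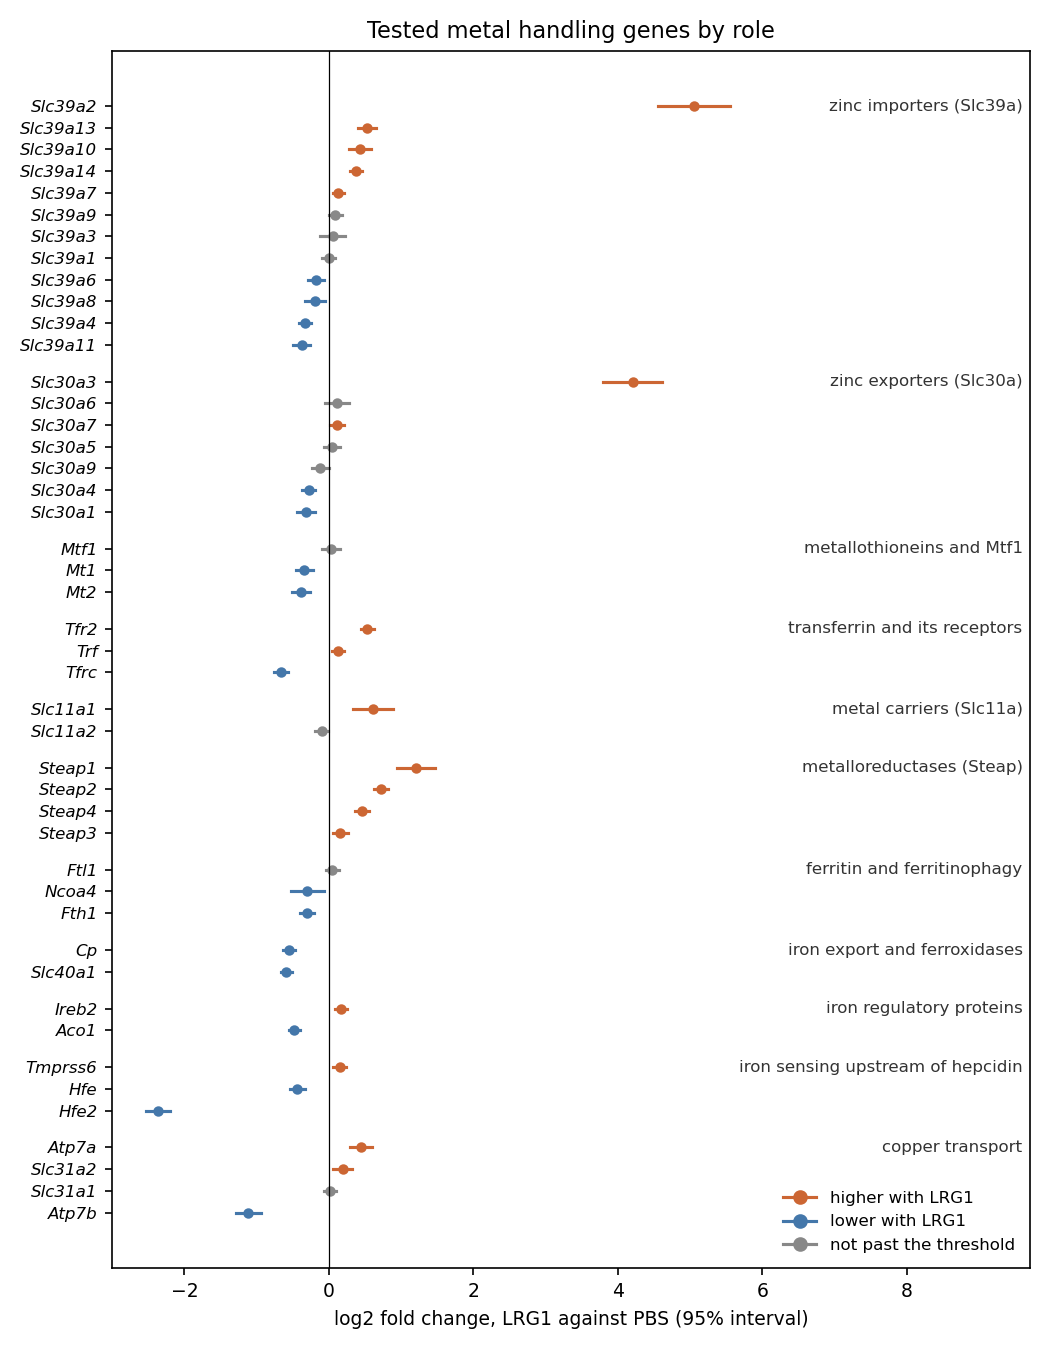
Log2 fold changes (LRG1 against PBS) of the 45 tested genes, grouped by role, with approximate 95% intervals derived from the edgeR test as horizontal lines. Orange marks genes that rose, blue genes that fell and grey those that did not pass. Slc39a2 and Slc30a3 lie far to the right, Hfe2 and Atp7b to the left, and all Steap genes are orange.

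Genes that work next to these transporters were counted over whole lists. Among all tested genes 25.5% rose and 25.8% fell, with a median log2 fold change of 0.0093. In heme handling, 12 of 21 genes fell, 4 rose and 5 did not pass, with a median log2 fold change of -0.19. The falls included the heme synthesis enzymes Alas1, Alad, Urod and Fech, by 1.13-fold to 1.35-fold, whereas Uros rose 1.32-fold. Slc48a1, which exports heme from endosomes and lysosomes, fell 1.57-fold and Slc46a1, a folate and heme importer, rose 1.92-fold. Lrp1, the receptor for hemopexin-bound heme, rose 1.75-fold, while hemopexin itself (Hpx) fell 1.34-fold from 12850 ± 640 to 9621 ± 213 CPM. Hmox1, heme oxygenase, rose 1.10-fold (adjusted p = 0.0279), with overlapping groups.

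Of 21 genes of intracellular and mitochondrial iron, 2 rose, 4 fell, 13 did not pass and 2 were not tested. Of those tested 31.6% passed, against 51.4% of all tested genes. Slc25a37, mitoferrin-1, which carries iron into mitochondria, rose 2.05-fold from 137 ± 8.91 to 280 ± 12.7 CPM (adjusted p = 6.27e-15). Fbxl5, the ubiquitin ligase subunit that degrades IRP2 when iron is present, rose 1.28-fold. Cisd1, an iron-sulfur protein of the outer mitochondrial membrane, fell 1.88-fold, and Iscu, Nfs1 and Abcb8 fell by 1.14-fold to 1.20-fold. Of the tested genes for copper chaperones and copper enzymes, 66.7% passed. In that list 9 of 20 fell, 3 rose, 6 did not pass and 2 were not tested. Among them the chaperone genes Ccs and Cox19 fell 1.32-fold and 1.40-fold and the copper and zinc enzyme gene Sod1 fell 1.23-fold. The chaperone gene Sco2 fell 1.19-fold, whereas Atox1, Cox17, Cox11 and Sco1 did not pass. F8, a coagulation factor, fell 2.29-fold from 2.08 ± 0.148 to 0.910 ± 0.134 CPM. Moxd1, a relative of dopamine beta-hydroxylase, rose from 2 counts in the PBS group to 232 counts in the LRG1 group (adjusted p = 7.03e-12). Lox, the copper-dependent lysyl oxidase, rose 15.5-fold from 4.89 ± 1.22 to 75.6 ± 0.255 CPM. Beside it, 8 of the 12 markers of stellate cells and fibroblasts, which also make Lox, could be tested. Of these Col1a1 and Acta2 rose, Reln fell and 5 did not pass, beside 51.4% of all tested genes that passed. None of the 12 was at 0 in all libraries. Their sum was 53.6 to 60.2 CPM with PBS and 151 to 162 CPM with LRG1, of which Col1a1 gave 11.2 ± 2.30 and 110.2 ± 4.96 CPM. The part of these cells in the Lox result was not tested. Of 7 other zinc genes, Trpm7, a channel that passes zinc and magnesium, rose 1.26-fold and Car3, a carbonic anhydrase, fell 1.31-fold. Car2 did not pass and the other 4, Mt3 and Mt4 among them, were not tested.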

How the data were processed

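Poly(A)-selected, strand-marked RNA libraries were sequenced as single 50-nt reads. The authors deposited raw read counts per gene symbol, 1 table per library. Per the submitters' processing notes bcl2fastq, TopHat2, HTSeq and the mouse build mm9 were used; neither versions, annotation nor strand setting were stated there. The 5 HTSeq summary rows were left out of library sizes and tests. The row for multiply aligned reads held 58.2 to 59.3% of each table's total, which can lower genes that have near-identical copies.

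Genes were kept by filterByExpr (minimum count 10), scaled by TMM and tested with the quasi-likelihood F test of edgeR 4.0.16 in R 4.3.3 on treatment alone, with Benjamini-Hochberg adjustment. The pipeline was tested on simulated data in which far fewer genes differed than passed here. That test does not cover scaling or error rates where 51.4% of the tested genes pass. CPM use TMM-scaled library sizes, and intervals and floors of 3 counts cover counting error or the model's error only. Exonic lengths are unions of coding transcripts' exons in GENCODE M21 (GRCm38), which is not the authors' build, so no coordinate was carried over.

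Values per library are given for every member that passed with at least 1.5-fold and for 25 members of central roles. The members, lists and this rule were chosen with earlier results of these data known. Alternatives were other scalings, filters and tools (DESeq2 1.42.0, limma-voom of limma 3.58.1), a replicate block and leaving out each library.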

Additional observations from a re-analysis of the deposited data

How the results depend on the processing

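Under 13 other settings, 34 of the 45 tested genes kept their direction and their side of the threshold. The number of members that rose was 18 and ranged from 15 to 18, and the number that fell was 17 and ranged from 15 to 18. Leaving out 1 library gave 15 to 18 and 15 to 17. Without a filter on low counts 18 members fell. That number takes in a gene outside the 45, as none of the 45 gained a call in that setting. Of the members outside the 45, only Slc30a10 had fewer counts with LRG1 (10) than with PBS (25). Over all genes 6317 passed, and 5521 to 6592 under the other settings. The 9 genes with at least a 1.5-fold difference passed under every setting run, although the log2 fold changes of Slc40a1 (-0.60 to -0.57) and Slc11a1 (0.54 to 0.73, the lowest without LRG1 replicate 3) lay on both sides of 1.5-fold. Of the genes that did not pass, 3 changed sign. Slc39a1 (-0.0031) had 0.00027 without a filter on low counts and -0.050 to 0.027 when 1 library was left out (0.027 without PBS replicate 2, 0.014 without PBS replicate 3, 0.026 without LRG1 replicate 2). Slc39a3 (0.05) ran from -0.018 to 0.10, the lowest without PBS replicate 1, and Mtf1 (0.03) from -0.0027 to 0.078, the lowest without PBS replicate 2. The cause was not tested.

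The titles share replicate numbers, but same-numbered libraries did not deviate together from their group means (correlations of -0.13, -0.016 and -0.12 across genes). With a replicate block 17 members rose, 17 fell and 5890 genes passed, and Slc30a7 was the only member whose call changed (log2 fold change 0.11, adjusted p = 0.0634).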
